A study of Mus musculus with 67 samples.

Results

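The nuclear genes for the subunits of the mitochondrial respiratory chain were followed in single cultured mouse aortic cells. Members were the protein-coding rows of the deposited table whose symbols name subunits of complex I (Nduf followed by a, b, c, s or v and a number), complex II (Sdha to Sdhd), complex III (Uqcr genes and Cyc1), complex IV (Cox4 to Cox8 genes with a subunit letter) and complex V (Atp5 genes). This gave 83 genes of 39179 gene rows, 37 of them in complex I, 4 in complex II, 9 in complex III, 16 in complex IV and 17 in complex V. The pattern leaves out Cox4i1 and Cox4i2, Ndufab1 and the electron carrier gene Cycs, whose values are given separately. The study took vascular smooth muscle cells, the contractile cells of the vessel wall, from the descending aorta of male C57Bl6 mice 3 to 4 months old. Culture medium held 10% serum and 1% antibiotic, and plates were not disturbed for 5 days, after which trypsin was used to lift passage 1 cells for subculture, giving passage 2. There were 22 cells at passage 1 and 45 at passage 2, each its own RNA-seq library, with the same strain, sex and medium in both passages. No animal or culture was named for a cell, so the cells of a passage counted as 1 sample, no test was possible, and SDs describe the spread between cells of these libraries. Passage 1 and passage 2 libraries carry different label prefixes, so passage and library set cannot be told apart.

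The respiratory chain passes electrons from NADH and succinate through complexes I, II and III to oxygen at complex IV, and complex V makes ATP from the resulting proton gradient. Most subunits are encoded in the nucleus and imported, while a small set that includes central subunits of complexes I, III, IV and V is encoded in mitochondrial DNA. Complex II is wholly nuclear. Several subunits exist as tissue isoforms, such as the heart and skeletal muscle forms of Cox6a, Cox7a and Cox8, a testis form of Cox6b, and forms of Cox4 and Ndufa4 known from low oxygen or from lung and vascular cells. Vascular smooth muscle uses both glycolysis and respiration, and nuclear respiratory factor 1 (NRF1), the ETS factor GABP, YY1 and CREB are known to act at promoters of many subunit genes.

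Promoter letters are shown for some of the members described below that hold one of the motifs searched. Other members described below, such as Atp5g2 and Atp5l with the NRF1 core, hold a motif and are not shown. RefSeq promoters of build GRCm38.p6, 250 bases before to 50 after the start, were found for 68 of the 83 members and were searched on both strands. The NRF1 core CGCATGCG was in 9 of 68 member promoters (13.2%), against 5.14% of 6754 promoters of genes past the filter on low values described below and 2.07% of 27025 promoters in all. The YY1 motif AAGATGGCG was in 7 (10.3%), against 4.13% and 1.64%. The ETS motif CCGGAAGT was in 5 (7.35%), against 10.4% and 4.31%, so its share was below that of expressed genes. The cyclic AMP response element TGACGTCA was in 4 (5.88%), against 3.89% and 2.03%. A match is a description of these letters and not a bound site. Capitals mark the motif, bases run 5′ to 3′ on the gene's strand, and positions count from the start, with the base before it at -1.
Cox6a1, NRF1 core motif, chr5:115349066-115349165 (minus strand), first motif base at -161: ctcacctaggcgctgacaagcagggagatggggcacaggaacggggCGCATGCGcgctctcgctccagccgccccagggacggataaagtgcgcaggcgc
Atp5k, NRF1 core motif, chr5:108434400-108434494 (minus strand), first motif base at -49: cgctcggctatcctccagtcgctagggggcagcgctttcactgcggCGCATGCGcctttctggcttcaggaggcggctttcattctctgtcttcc
Atp5j, NRF1 core motif, chr16:84835070-84835169 (minus strand), first motif base at -147: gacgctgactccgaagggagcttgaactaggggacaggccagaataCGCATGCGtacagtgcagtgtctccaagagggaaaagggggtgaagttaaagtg
Atp5j, YY1 motif, chr16:84835010-84835110 (minus strand), first motif base at -88: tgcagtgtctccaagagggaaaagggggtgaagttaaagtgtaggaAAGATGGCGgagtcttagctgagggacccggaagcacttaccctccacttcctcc
Uqcr11, ETS motif, chr10:80406834-80406933 (minus strand), first motif base at -66: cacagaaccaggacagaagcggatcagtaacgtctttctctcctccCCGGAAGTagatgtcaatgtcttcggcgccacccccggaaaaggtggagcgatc
Uqcrfs1, CRE motif, chr13:30545317-30545391 (minus strand), first motif base at -29: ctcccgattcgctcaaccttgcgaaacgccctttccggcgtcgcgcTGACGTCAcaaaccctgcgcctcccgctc
Atp5j, Cox6a1, Atp5k and Uqcr11 code for small subunits of complexes V, IV, V and III. Uqcrfs1 codes for the Rieske iron-sulfur protein of complex III. Members with the NRF1 core had a median log2 ratio between passages of -0.12 (9 genes) and those without it of 0.02 (54 genes past the filter).

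Libraries held 817021 to 1561129 recovered reads per cell at passage 1 and 548419 to 1509589 at passage 2. Passage 1 cell 21 and passage 2 cell 13 stood apart with the fewest genes detected (4017 and 4163) and the highest summed member level of their passages (11397 and 12845). Passage 2 cell 15 came next after cell 13 in both, with 4754 genes and a sum of 10290.5. It was kept where cells 21 and 13 are left out below. Smooth muscle markers were present, with 9 of 10 past the filter and 281 to 8633 summed normalized counts at passage 1 and 1371 to 29932 at passage 2. All 9 were higher at passage 2, with a median log2 ratio of 2.21. Of them 8 lay at 1 or more (88.9%, against 14.4% of all genes past the filter). Fibroblast markers were also present, with 6 of 8 past the filter. The 8 summed to 10 or more in 19 of 22 and 41 of 45 cells, with medians of 755 and 427. At least 3 of 10 endothelial markers reached a value of 10 in 5 passage 1 cells and 2 passage 2 cells. Mki67 or Top2a, genes of dividing cells, reached 10 in 16 of 22 and 10 of 45 cells. No adipocyte or striated muscle marker passed the filter.

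The respiratory chain genes were read in every cell more often than genes past the filter at large. Values are gene counts after the authors' scaling by each cell's size factor, called normalized counts here. A gene passed the filter when, in either passage, its mean reached 10 and 25% or more of the cells held a read. Of the 83 members 75 passed, against 8682 genes in the table: 36 of complex I, 4 of complex II, 9 of complex III, 10 of complex IV and 16 of complex V. The 8 others were Atp5s, Cox6a2, Cox6b2, Cox7a1, Cox7b2, Cox8b, Cox8c and Ndufa4l2, of which 7 are isoforms taken up below and Atp5s is a less studied gene named for the ATP synthase. Between 68 and 76 members had a read in each passage 1 cell (median 75) and between 64 and 77 in each passage 2 cell (median 73). At passage 1, 84% of the 75 members had a read in every cell, against 18.8% of genes past the filter, and at passage 2 these shares were 49.3% and 10.2%. Members and other genes were not matched for mean level here. The 83 members together took a median of 0.98% of a cell's reads at passage 1 and 0.91% at passage 2.

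Summed over the 75 members, the level was slightly lower at passage 2 by its mean and its median. It was lowest at 7487, had a median of 8833 and was highest at 11397 normalized counts in passage 1 cells, and 5602, 7942 and 12845 in passage 2 cells. The means were 8738 ± 899 (SD between cells, n = 22) and 7983 ± 1271 (n = 45), a log2 ratio of passage 2 over passage 1 of -0.13. The ranges overlapped, and the passage 2 cell was the higher in 27.7% of pairs of 1 cell from each passage.

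Gene by gene, members lay closer to equality than the table at large. The log2 ratio was taken between means over cells after adding 1, and a gene was counted as past the fold at 1 or more, or -1 or less. The median over the 75 members was -0.00028, with 37 higher and 38 lower at passage 2, and the median over all 8682 genes was -0.11. Ndufa6 was the only member at 1 or more, where 14.4% of all genes lay. Ndufv1 was the only member at -1 or less, where 19.4% of all genes lay. Within 0.5 of equality were 53 of 75 members (70.7%) and 38.5% of all genes. These 2 shares are not matched for mean level or for regularity of detection. Of the 83 members 34 are also among the 747 genes behind the size factors, taken up below. When each cell's log2 value was averaged in place of the counts, the members' median was -0.37, with the median of all genes at -0.62. By that summary 14 members lay at -1 or less, where 35.1% of all genes lay.

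**Figure D1:**
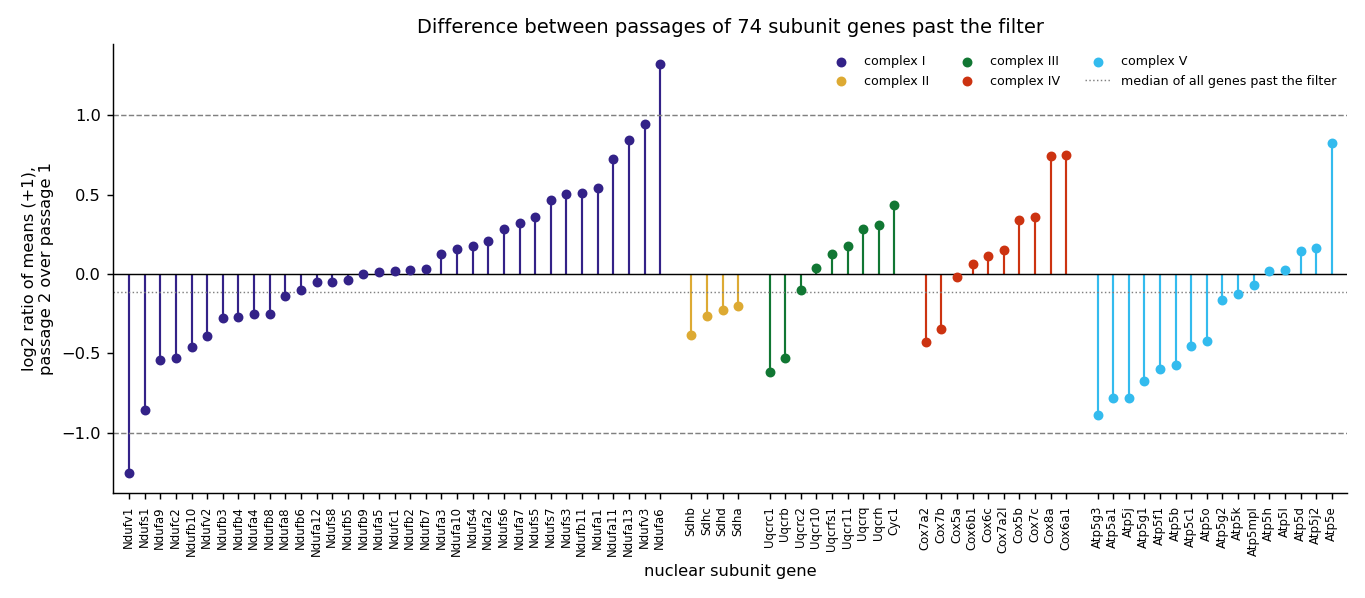
Log2 ratio of the mean normalized count (plus 1) at passage 2 over passage 1 for 74 of the 75 subunit genes past the filter, grouped by complex and ordered within it. Dashed lines mark ratios of 1 and -1 and the dotted line the median of all genes past the filter (-0.11). Ndufa6 and Ndufv1 lie outside the dashed lines, the 4 complex II genes lie below 0, and 11 of 16 complex V genes lie below 0.

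Complexes differed from each other more than the total did. Complex IV was higher and complex V lower at passage 2, while complexes I and III were nearly level. Complex V transcripts summed to 2547, 3166 and 4368 normalized counts (lowest, median and highest) in passage 1 cells and to 1278, 2319 and 4612 in passage 2 cells. Their means were 3224 ± 434 and 2284 ± 671, a log2 ratio of -0.50, and the passage 2 cell was higher in 9.29% of cell pairs. Most passage 2 cells lay below most passage 1 cells, although the ranges overlapped and passage 2 cell 13 had the highest value of all.

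Complex IV sums ran from 893 (median 1093) to 1655 at passage 1 and from 892 (median 1482) to 3430 at passage 2. With means of 1175 ± 228 and 1526 ± 419 the log2 ratio was 0.38, and the passage 2 cell was higher in 80.2% of pairs. Of the difference of 350 normalized counts 312 came from Cox6a1, and the other 9 genes summed to 719 ± 188 and 757 ± 214, a log2 ratio of 0.08. The higher sum of these 10 genes was therefore largely that of 1 subunit. By the symbol rule it leaves out 2 genes whose values are given below, Cox4i1 (log2 ratio 0.41) and Ndufa4 (-0.25). In complex V no single gene had that weight: without Atp5b, Atp5g3 or Atp5a1 in turn the log2 ratio was -0.48, -0.45 and -0.46.

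Complex I sums were 2711 ± 362 at passage 1 and 2738 ± 448 at passage 2, a log2 ratio of 0.01, whose sign turned with scaling (-0.07 with counts per total, 0.09 with TMM factors). Complex III sums were 1007 ± 209 and 919 ± 302 (log2 ratio -0.13). Complex II sums were 622 ± 233 and 517 ± 295 (log2 ratio -0.27). The complex II and III differences were smaller than the SD between cells of either passage. Without the cells with Mki67 or Top2a at 10 the ratios of complexes I to V were -0.01, -0.41, -0.30, 0.26 and -0.58. Without passage 1 cell 21 and passage 2 cell 13 the ratios of complexes II, IV and V were -0.18, 0.36 and -0.51.

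**Figure D2:**
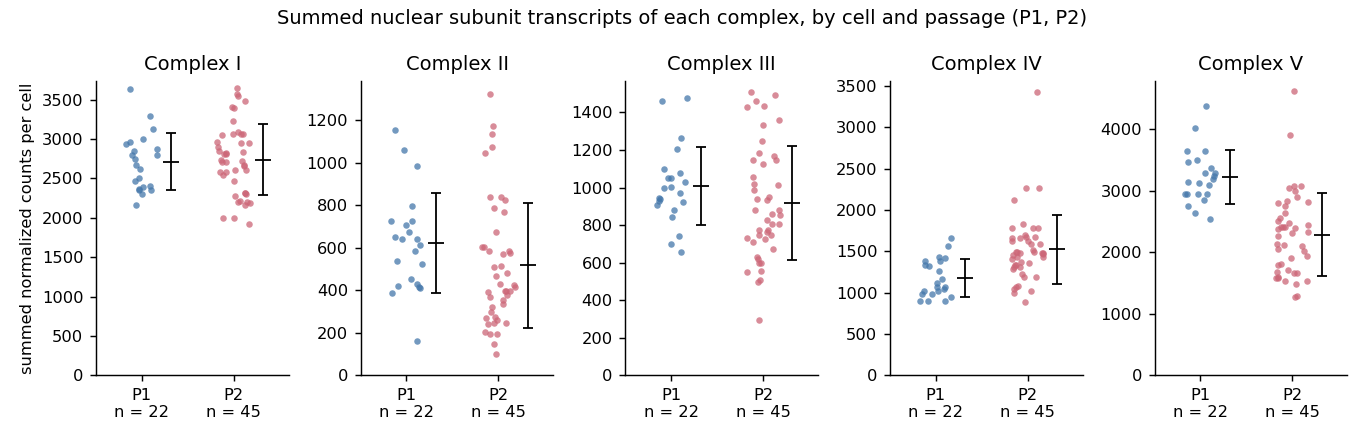
Summed normalized counts of the subunit genes past the filter in each cell (points), by complex, with the mean and SD between cells beside them (22 passage 1 cells, P1, and 45 passage 2 cells, P2). Complex V lies lower at passage 2 (2284 ± 671 against 3224 ± 434) and complex IV higher (1526 ± 419 against 1175 ± 228), and the passages overlap in all 5 panels.

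In complex I, values are given for the electron-carrying core and the accessory subunits in turn. The 7 nuclear core subunits hold the flavin, the iron-sulfur clusters and the quinone site. They had a median log2 ratio of -0.39, with 5 lower and 2 higher. The 2 higher, Ndufs7 and Ndufs3, were lower when log2 values were averaged. The 29 accessory subunits had a median of 0.03, with 12 lower and 17 higher. The core genes are longer, with a median coding length of 789 bases against 393, and the ratio also ran with length over all 75 members, whose Spearman correlation with the longest coding length was -0.36, against 0.0013 over 8317 genes past the filter. Members of up to 300 coding bases had a median log2 ratio of 0.13 and those above 1200 of -0.57, against 0.16 and -0.12 in other genes of these lengths. Ndufv1, the flavin-bearing subunit that receives electrons from NADH, ranged from 0 (median 65.3) to 222 normalized counts at passage 1 and from 0 (median 2.27) to 352 at passage 2. Its means of 86.2 ± 71.3 and 35.6 ± 77.1 gave a log2 ratio of -1.25. It reached 10 in 21 of 22 passage 1 cells and 14 of 45 passage 2 cells, so the passage 2 mean rested on a minority of cells, and the log2 ratio was -3.18 when log2 values were averaged.

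Ndufs1, the large iron-sulfur subunit next to Ndufv1, had the same form. Its values ran from 0 (median 57.8) to 283 at passage 1 and from 0 (median 5.73) to 481 at passage 2, with means of 92.9 ± 91.6 and 50.9 ± 97.9 and a log2 ratio of -0.86. Cells at 10 or more were 19 of 22 and 18 of 45, and the ratio of averaged log2 values was -2.56. Without passage 2 cell 5 or cell 33 the Ndufs1 ratio was -1.03 or -1.16. Among the other core genes, Ndufv2 (-0.39) and Ndufs8 (-0.05) were lower and Ndufs7 (0.47) and Ndufs3 (0.50) higher at passage 2, each by less than the SD between cells. Averaged log2 values put Ndufs8 at -1.13, Ndufs7 at -0.09 and Ndufs3 at -0.21, so the direction of Ndufs7 and Ndufs3 depended on the summary.

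Ndufa6, an accessory subunit of the LYR family that sits with the acyl carrier Ndufab1, had the highest ratio of the 75 members past the filter. It ran from 0 (median 33.98) to 97.5 normalized counts at passage 1 and from 4.08 (median 71.6) to 215 at passage 2. The means were 31.8 ± 22.7 and 81.0 ± 51.2, the log2 ratio was 1.32, and the passage 2 cell was higher in 80.6% of pairs. Most passage 2 cells exceeded most passage 1 cells, although the lower part of the passage 2 range lay within that of passage 1. Without the cells with Mki67 or Top2a at 10 the ratio was 0.95. Ndufa13, known also as GRIM-19, was at 71.4 ± 34.4 and 129 ± 57.4 (0.84). Ndufv3, an accessory subunit of the NADH-oxidising module made in a short and a long form, was at 42.5 ± 27.5 and 82.9 ± 66.2 (0.95), and at 1.01 or 1.04 without passage 1 cell 6 or cell 15. Ndufab1, outside the rule, was at 60.3 ± 30.7 and 31.8 ± 28.2 (-0.90), opposite in sign to Ndufa6.

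The 4 complex II genes were all lower at passage 2, none past the fold and each by less than its SD between cells. Sdha, the flavin subunit that oxidises succinate, ran from 0 (median 125) to 542 at passage 1 and from 0 (median 55.5) to 759 at passage 2, with a log2 ratio of -0.20. Sdhb, the iron-sulfur subunit, had -0.38, and the membrane anchors Sdhc and Sdhd had -0.27 and -0.23. With averaged log2 values Sdha, Sdhc and Sdhd were at -0.79, -1.03 and -1.15. In complex III the larger core subunit Uqcrc1 was at 229 ± 160 and 149 ± 163 (-0.62), Uqcrb at 231 ± 99.7 and 160 ± 90.3 (-0.53) and Uqcrc2 at 132 ± 94.5 and 123 ± 150 (-0.10). Uqcrc1 and Uqcrc2 were at -1.93 and -1.20 with averaged log2 values. The 6 others were higher at passage 2, among them the redox subunits Cyc1 (cytochrome c1, 0.44) and Uqcrfs1 (0.13). Cyc1 had a higher mean but a lower median at passage 2, 42.9 against 31.5 and 8.61 against 14.3, so its direction depended on the summary. Cycs, cytochrome c itself and outside the rule, was at 174 ± 68.7 and 83.1 ± 66.4 (-1.06).

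In complex IV Cox6a1, the widely expressed form of subunit 6a, ranged from 266 (median 436) to 703 normalized counts at passage 1 and from 191 (median 775) to 1900 at passage 2. Its means of 456 ± 120 and 768 ± 293 gave a log2 ratio of 0.75 and a higher passage 2 cell in 85.4% of pairs. Passage 2 cell 13 held the highest value. Cox8a was at 75.97 ± 44.9 and 128 ± 64.2 (0.74). At the other end Cox7a2 was at 105 ± 62.2 and 77.5 ± 40.4 (-0.43). Cox4i1, the common form of subunit 4 and outside the rule, was at 252 ± 76.5 and 335 ± 154 (0.41).

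In complex V the lower genes came from both the catalytic head and the membrane part. Atp5a1 and Atp5b, the alpha and beta subunits of the head, were at 402 ± 151 and 233 ± 238 (-0.78) and at 685 ± 276 and 460 ± 324 (-0.57). Atp5a1 was at -1.50 with averaged log2 values. Atp5g3, coding for the ring subunit c that turns with proton flow, ran from 175 (median 380) to 540 at passage 1 and from 0.97 (median 219) to 473 at passage 2. Its log2 ratio was -0.89, or -1.24 with averaged log2 values, and the passage 2 cell was higher in 12.2% of pairs. Atp5j, coupling factor 6 of the stalk, was at 242 ± 89.7 and 140 ± 67.3 (-0.78), and Atp5g1 at 61.2 ± 29.3 and 38.03 ± 23.5 (-0.67). Atp5e, the epsilon subunit of the head, went the other way, at 39.1 ± 17.3 and 70.1 ± 33.8 (0.83, higher in 79.3% of pairs).

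**Figure D3:**
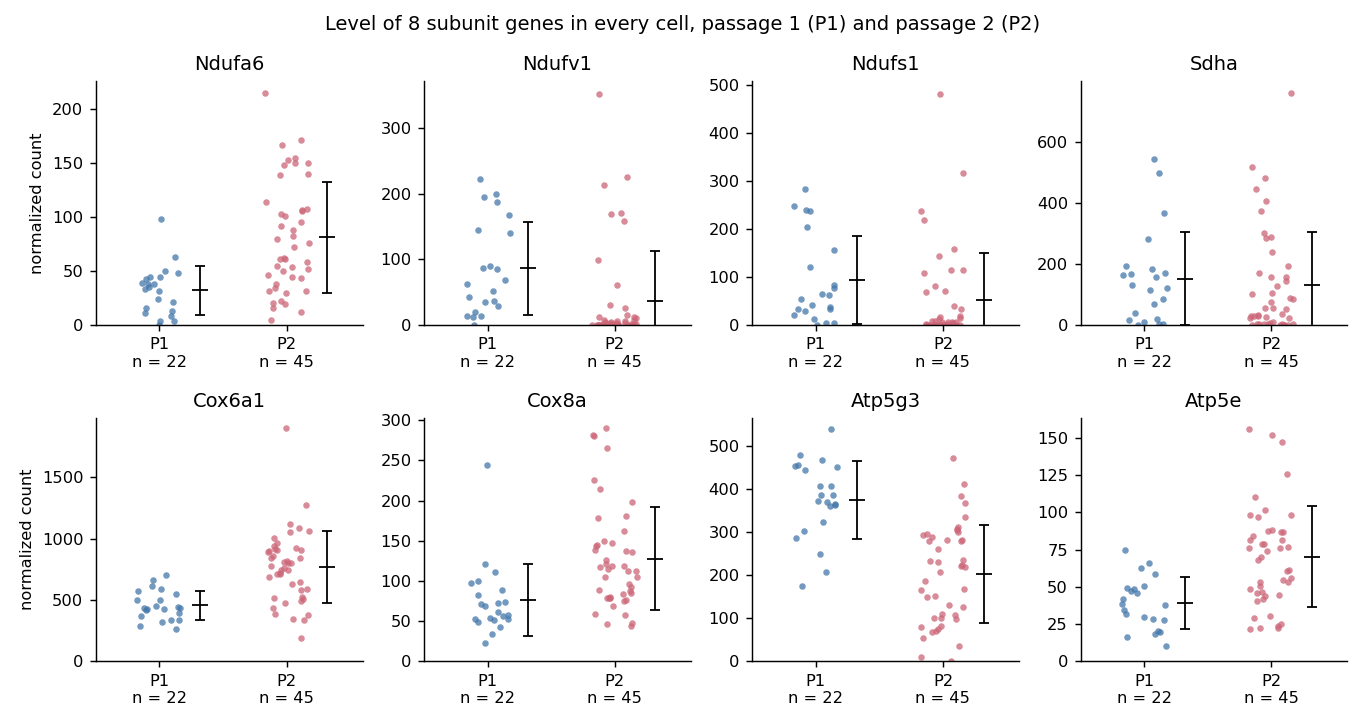
Normalized counts of 8 subunit genes in every cell (points), with the mean and SD between cells beside them, for 22 passage 1 cells (P1) and 45 passage 2 cells (P2); error bars that would pass below 0 are clipped by the axis. Ndufv1 and Ndufs1 have most passage 2 cells below 10 (medians 2.27 and 5.73), with 14 and 18 of 45 at 10 or more. Cox6a1, Cox8a, Ndufa6 and Atp5e have higher passage 2 means, and Atp5g3 a lower one.

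Most members varied less from cell to cell than other genes of like level. The coefficient of variation (CV, SD over mean) had a median of 0.50 over the 75 members at passage 1 and 0.70 at passage 2, against 1.43 and 2.03 over all genes past the filter. The CV falls with the mean level, so each gene was also read against the running median of genes of like mean, as log2 CV minus that trend. The members' median was -1.14 at passage 1 and -1.05 at passage 2, and 4.16% and 4.77% of all genes past the filter lay at or below these values. Below the trend were 73 and 71 of 75 members, against 49.8% of all genes in either passage. The CV was higher at passage 2 in 64 of 75 members, near the 83.4% of all genes.

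The size factors of the authors bear on this measure. Median ratio factors recomputed over the 747 genes with a read in all 67 cells matched them, up to 1 common scale, to within 0.001% in all 67, and 34 of the 83 members (40.96%) were among these genes, against 8.60% of genes past the filter. In those members the median distance from the trend was -1.27 and -1.32, against -0.39 and -0.37 in the other genes of that set. In the 41 members without a read in some cell it was -0.85 and -0.77, against 0.03 and 0.03 in other such genes. With counts per total in place of the factors the medians over the 75 members were -0.99 and -0.91, and without passage 1 cell 21 and passage 2 cell 13 they were -1.16 and -1.09.

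**Figure D4:**
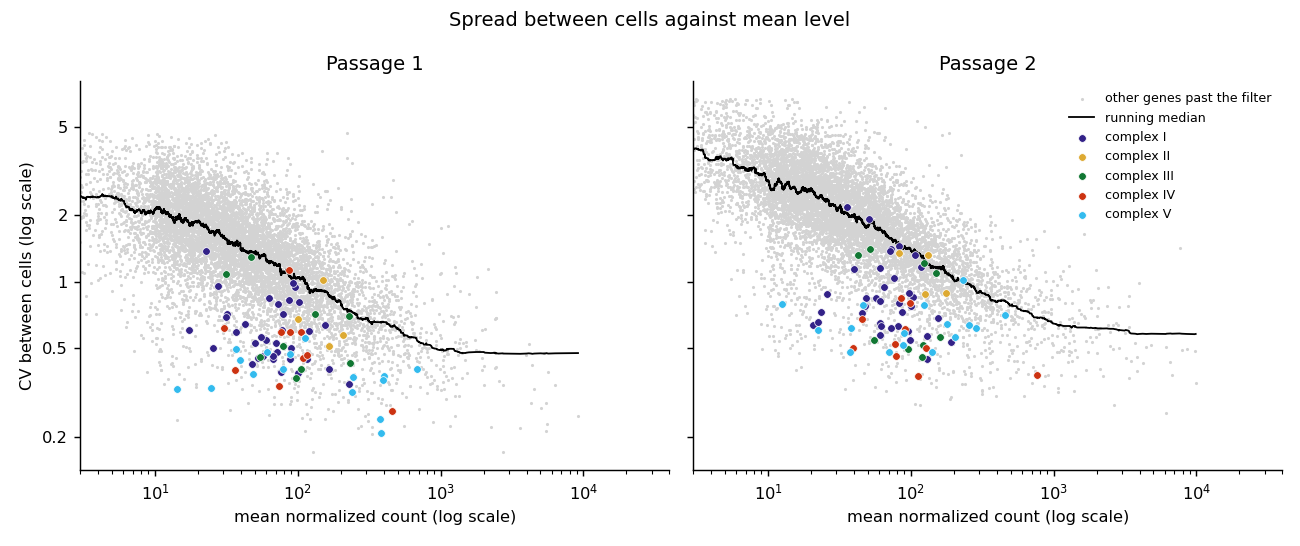
CV between cells against mean normalized count at each passage, both on log scales, for the subunit genes past the filter (coloured by complex) and the other genes past it (grey), with the running median as a black line. Members lie below the line in 73 of 75 cases at passage 1 and 71 of 75 at passage 2.

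The lowest distances from the trend were those of Atp5g2 (-2.53), Atp5k (-2.33) and Cox5b (-1.90) at passage 1 and of Atp5l (-2.04), Ndufb4 (-2.0) and Atp5k (-1.99) at passage 2. Atp5k, subunit e of the membrane part, ran only from 12.7 (median 23.9) to 44.2 normalized counts over 22 passage 1 cells. Atp5g2, Atp5l, Ndufb4 and Cox5b share 87.4%, 84.8%, 37.0% and 25.9% of the 50-base windows of their transcripts with another annotated gene. Their values are therefore uncertain, whereas Atp5k shares 1.24%. The highest distances were Sdha (0.16), Cox5a (0.10) and Uqcrfs1 (-0.06) at passage 1 and Sdha (0.13), Ndufv1 (0.09) and Ndufs1 (0.09) at passage 2. Catalytic or large genes were not all near the trend, with Atp5a1 at -0.81 and 0.03 at passages 1 and 2 and Atp5b at -0.42 and -0.22. Core complex I genes had medians of -0.50 and -0.17, against -1.17 and -1.11 for the accessory ones, and complex II genes -0.51 and -0.22. Cox5a at passage 1 had its highest value, 462 against a median of 53.2, in cell 21.

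Coding length ran with this difference. Over the 75 members the Spearman correlation between the longest annotated coding length and the distance from the trend was 0.60 at passage 1 and 0.83 at passage 2, with the cells and their libraries shared by all points. Over 8316 and 8317 genes past the filter it was 0.33 and 0.29. Members also lay below other genes of like coding length. Up to 300 bases the medians at passage 1 and 2 were -1.41 and -1.49 for 19 members and -0.74 and -0.74 for 150 others. Over 300 and up to 600 bases they were -1.17 and -1.10 for 35 members and -0.42 and -0.36 for 917 others. Over 600 and up to 1200 bases they were -0.78 and -0.55 for 12 members and -0.07 and -0.04 for 2342 others. Above 1200 bases they were -0.37 and -0.05 for 9 members and 0.11 and 0.10 for 4833 others, so at passage 2 the long members lay near the trend.

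**Figure D5:**
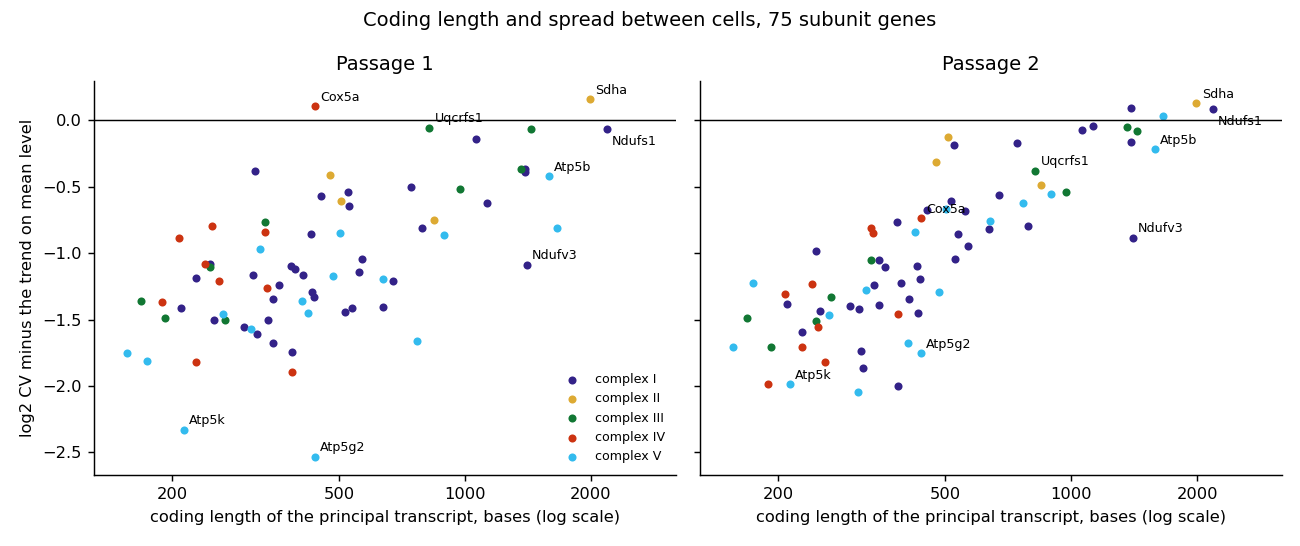
Coding length of the principal transcript (log scale) against log2 CV minus the trend on mean level, for the 75 subunit genes past the filter at each passage. Short genes lie lowest and long genes such as Sdha and Ndufs1 lie near 0, with Spearman correlations of 0.59 and 0.82 for this length, while Ndufv3 lies well below other genes of its length.

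Levels between genes were compared only per kb of annotated exon. Cox6a1 was the highest by far, at a mean over all cells of 949 normalized counts per kb, followed by Ndufb6 (241), Ndufa1 (210), Uqcrb (209), Cox8a (179) and Uqcr11 (179). Cox6a1, Ndufb6, Uqcrb and Uqcr11 share 12.3%, 34.1%, 43.4% and 10.9% of their windows with another gene and may hold reads of copies. Atp5c1 (168) and Atp5b (126) led complex V, and Sdhd (151) and Sdhb (62.02) complex II. Cox6a1 exceeded Ndufb6 by more than the SD of Ndufb6 between cells, and below it no neighbours among the 75 differed by more than the smaller of their SDs. Across members, 28 of 83 shared at least 10% of their windows with another annotated gene and 38 shared none. Over the 47 members past the filter with under 10% the median log2 ratio was -0.05 and the distances from the CV trend -1.08 and -0.98.

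Of the isoforms, 4 were not read in any cell. Cox6a2, Cox7b2, Cox8b and Cox8c had 0 reads in every cell, which by counting error alone allows up to 3 of the 26400274 reads at passage 1 and 3 of the 41340350 at passage 2. Cox7a1, the heart and skeletal muscle form of subunit 7a, had 2 reads in all at passage 1, 15 at passage 2 and no cell at 10. Its family was made up per kb of Cox7a2, with 64.97% and 55.03% at passage 1 and 2, and of Cox7a2l, a factor of respiratory supercomplexes, with 34.9% and 44.5%. The Cox7a2 share within single cells had a median of 66.1% and 60.7% and an SD of 17.6 and 23.6 percentage points, so the passages overlapped widely.

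A few cells held reads of other isoforms. Ndufa4l2, a paralog of Ndufa4 known to be induced by low oxygen, had 1 read at passage 1 and 203 at passage 2. All 5 passage 2 cells with a read were above 10, namely cells 10 (60.1), 17 (11.6), 20 (89.7), 25 (16.7) and 31 (25.3). Per kb its share of the pair was up to 48.5% within a cell, with a median of 0%. Ndufa4, whose protein is now placed with complex IV although its symbol places it in complex I, was read in all 67 cells at 229 ± 79.3 and 191 ± 103.

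Cox4i2, the alternative form of subunit 4 and outside the rule, reached 10 in passage 1 cells 19 (19.002) and 20 (17.3) and in passage 2 cells 10 (34.7), 31 (30.8), 35 (43.2) and 45 (174). Cells 10 and 31 of passage 2 thus held both Ndufa4l2 and Cox4i2. Cox6b2, the testis form of subunit 6b, reached 10 in 1 passage 1 cell (17.5) and in 8 passage 2 cells (12.2 to 30.9), and none of these 8 held Ndufa4l2 or Cox4i2 at 10. None of the cells named here for these 3 isoforms was among the cells with at least 3 endothelial markers at 10. Over 20 marker genes of adipocytes, striated muscle and macrophages, the median number of cells at 10 was 0 in each passage, and the highest was that of Csf1r with 9 and 7 cells.

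The 3 genes for subunit c make the same mature protein after removal of their import sequences. Atp5g3 took 89.2% of the family per kb at passage 1 and 85.9% at passage 2, Atp5g1 6.44% and 7.15%, and Atp5g2 4.39% and 6.94%. The Atp5g3 share within cells lay between 80.5% and 94.5% at passage 1 and between 1.94% and 99.8% at passage 2, with SDs of 4.07 and 19.4 percentage points. The lowest share at passage 2 was that of cell 37, whose Atp5g3 value was 0.97. Lengths of the principal transcripts gave 94.1% for Atp5g3 at passage 1, and no length correction gave 83.3%. Atp5g2 and Atp5g1 share 87.4% and 11.6% of their windows with other annotated genes and Atp5g3 shares 0%. How reads with several matches were counted is not given, so these shares are uncertain.

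Correlations between single subunit genes across cells were weak. The median Spearman correlation between member pairs of 1 complex was 0.03 over 22 cells and 0.02 over 45 cells, that between members of different complexes 0.02 and 0.01, and that over all pairs of genes past the filter 0.04 and 0.02. Complex I gave 630 of the 837 pairs of 1 complex, with medians of 0.05 and 0.01. At passage 2 the medians of complexes II, III, IV and V were 0.08, 0.06, 0.05 and 0.04, each above that of all pairs, and at passage 1 they were -0.04, -0.01, 0.04 and 0.01. Sums over complexes I and IV had the highest correlation of the 10 complex pairs, 0.43 and 0.32, and 0.70 and 0.54 with counts per total, where the values share the cell's total. Sums of all members against the mitochondrially encoded subunits gave -0.13 and -0.26, and at passage 1 the sign turned to 0.13 with counts per total. At passage 1 the member sum was lower in cells with more genes detected (-0.66, and -0.55 without the 2 farthest cells), and at passage 2 this was -0.10. Against Mki67 and Top2a it was -0.28 and 0.42. These are descriptions over cells of 1 library set each. The 5 genes outside the chain whose level most resembled the member sum, by the mean of the within-passage correlations over 8607 genes, were Dynll1 (0.65 and 0.46), Psmb3 (0.62 and 0.45), Hint1 (0.68 and 0.29), Rplp2 (0.65 and 0.29) and Rpl27 (0.51 and 0.40).

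Nuclear genes of other mitochondrial functions had lower medians than the subunits, except regulators. Mitochondrially encoded subunits had 9 of 12 higher and a median log2 ratio of 0.18, none past the fold, from mt-Nd1 (-0.21) to mt-Nd4 (0.56). Their summed level was 26680 to 49619 normalized counts over passage 1 cells and 11517 to 98773 over passage 2 cells. Citrate cycle and pyruvate dehydrogenase genes, which supply the electrons, had 15 of 17 lower (88.2%, against 54.7% of all genes past the filter), 5 of them at -1 or less (29.4%, against 19.4%), and a median of -0.64, from Dlst (-2.10) to Idh3g (0.72). The 6 carriers and channels were all lower (median -0.58), led by the ATP/ADP carrier Slc25a5 at 1032 ± 431 and 428 ± 264 (-1.27).

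Assembly factors had 24 of 38 lower (63.2%), 5 at -1 or less (13.2%, under the 19.4% of all genes), and a median of -0.30, from Acad9 (-1.82) to Ndufaf3 (0.94). Mitochondrial ribosomal protein genes had 44 of 71 lower and a median of -0.34, with 5 at -1 or less (7.04%) and 1 at 1 or more (1.41%), both under the shares of all genes, from Mrpl16 (-1.66) to Mrpl38 (1.03). Regulators of mitochondrial genes had 6 of 11 higher and a median of 0.22, from Polg2 (-1.05) to Myc (1.62). Hypoxia response genes had 2 of 5 higher and a median of -0.06, from Lonp1 (-2.62) to Higd1a (0.50). Assembly factors and citrate cycle genes also lay nearer the spread trend than the subunits, with medians of -0.33 and -0.20 at passage 1 and -0.37 and -0.09 at passage 2.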

How the data were processed

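RNA-seq of 67 single cells was analysed from the deposited table. Per the submitters' processing notes the tools were HTSeq, DESeq, BWA and SAMtools and the build GRCm38, without versions. Multi-mapping and strand handling are not given in the sources used here. The deposited signal values are gene counts scaled by the authors with each cell's size factor. Dividing each column by its smallest value gave reads, whole to within 0.001 for 100% of 509576 values above 0.

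Genes with a mean of at least 10 and a read in at least 25% of cells of a passage were kept. The log2 ratio used means plus a pseudocount of 1, which understates differences of low genes. The CV trend was a running median over 201 genes. Symbols, exon and coding lengths came from GENCODE M21 (37607 of 39179 rows matched) and promoters from RefSeq. No count test was run, because each passage is 1 sample by its labels. No doublet caller was run on 67 cells. The functions were tested on simulated data. Named genes were the 2 highest per kb of each complex, the 6 highest and 6 lowest ratios, isoform families, complex II, core complex I, catalytic and redox subunits, the 3 highest and 3 lowest distances from the CV trend per passage, and the extremes of each companion list. The values of 1 gene that this rule names are not reported here. Members, lists and this rule were chosen with earlier results of these data known. Alternatives covered pseudocounts, filters, scalings, summaries, thinning to 500000 reads, cells left out, lengths and shared windows. Tools were scipy 1.17.1, pandas 2.3.3, numpy 2.4.6, matplotlib 3.10.9 and Python 3.11.15.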

Additional observations from a re-analysis of the deposited data

How the results depend on the processing

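Over 20 alternatives, 803 of 840 recomputed values moved by less than the spread they were read against (the SD between cells or members, or 1.5 times for a count), 37 moved by more and 0 changed sign from a called value. This yardstick is loose for single genes, whose spread between cells is wide. With averaged log2 values Ndufs1 went from -0.86 to -2.56 and Cyc1 from 0.44 to -0.73, and neither counted as moved by more. A change of sign was looked for only in ratios past the fold and in the larger correlations. These counts therefore do not measure how firm a value is. The ratios of the summed complexes moved by less than the SD between cells throughout, with complex IV at 0.26 to 0.48 and complex V at -0.58 to -0.39 on the log2 scale. The median log2 ratio over members was -0.37 when log2 values were averaged and -0.20 when medians replaced means, against -0.62 and -0.60 over all genes, and the cause was not tested. Members at 1 or more numbered 3 with no filter, 2 with TMM, 2 when log2 values were averaged and 0 without cells with Mki67 or Top2a at 10. In the last 2 of these settings 6.66% and 24.3% of all genes lay there. With no filter and with TMM that share was within 1.5 times the reported 14.4%. Members at -1 or less numbered 14 when log2 values were averaged, 6 when medians replaced means, 2 with thinned reads, 2 without endothelial marker cells and 2 without the 25% of cells lowest in genes detected. In the first 2 of these settings 35.1% and 39.8% of all genes lay there. In the others just named the share was within 1.5 times the reported 19.4%. Leaving out each cell in turn gave counts of 1 to 2 in either direction. At passage 1 the share of Atp5g1 was 13.6% without length correction and 2.35% by principal transcript length, and that of Atp5g3 83.3% and 94.1%, since the length used sets these shares. The principal transcript length and the members with few shared windows, and leaving out the cell of each passage with the fewest genes, were chosen after seeing the data. No paired analysis was possible because the cell numbers follow accession order and no test was run. Each passage is 1 sample, so none of these differences has a replicate check, and low values limit ratios of genes near the filter.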
